A study of Mus musculus with 4 samples.

Results

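The translation factors described here are the genes whose symbols begin with Eif or Eef, the initiation and elongation factors of cytosolic protein synthesis and the proteins named after them. The rule used the symbols and no difference between groups. A probe set counted where the platform annotation gave it exactly 1 gene symbol, each gene was represented by its brightest probe set over the 4 arrays, and the eIF2 kinases, the X- and Y-linked eIF2 gamma genes and Eef1e1 were left out. This gave 52 genes of the 18193 genes named on the array. Of these, 49 passed the filter on dim probe sets, against 11395 of all genes. Eif4a3, Eef2kmt and Eif5a2 were below it and received no test.

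The arrays compared 2 samples of beta-catenin mutant crypts with 2 samples of control crypts. The mutant mice had received tamoxifen to delete beta-catenin, and tissue was taken at 2 days of deletion. The labels name neither the alleles, the strain nor the age, and do not say what drove the deletion or whether the controls were given tamoxifen. Crypts, the epithelial pockets of the intestine that hold stem cells, Paneth cells and dividing progenitors, were isolated by laser capture, and their mRNA was amplified in 2 rounds. No label says that the 2 samples in a group are from different mice, so each p-value reflects how far these samples spread and nothing more, and that spread may be technical.

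Protein synthesis starts when eIF2 brings the initiator tRNA to the small ribosomal subunit, on which eIF3 serves as a scaffold. The eIF4 proteins bind the cap of the mRNA and unwind it. After the start codon has been found, eEF1A delivers each aminoacyl-tRNA and eEF2 moves the ribosome along. The genes of this machinery include classical targets of the transcription factor Myc, itself induced by Wnt signalling in intestinal crypts.

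Promoter sequences were searched for 3 short motifs and are shown for genes that lay lower in the mutants. RefSeq entries on GRCm38.p6 matched 41 of the 52 genes, with 250 bases before and 50 after the annotated start. The E-box CACGTG, the sequence that Myc and its partner Max can bind, was present in 12 of the 41 genes (29.3%), against 7.15% of the 32851 promoter entries of all genes and 11.8% of the 9248 expressed genes with an entry. The motif CCGGAAG or its reverse complement CTTCCGG, a sequence bound by ETS family factors, was present in 15 of 41 genes (36.6%), against 8.86% of all entries and 20.04% of expressed genes. CTTTGAT or ATCAAAG, a sequence bound by the TCF/LEF partners of beta-catenin, was in 0 of 41 genes. It was in 3.73% of all entries and 3.09% of expressed genes, so it was rare in general. Genes with several annotated starts had more sequence to match. The 100 bases before the start are printed 5′ to 3′ on the gene's strand for 4 subunits of eIF3, the complex with the most members below the controls, and for the elongation factor gene Eef2. Capitals mark CTTCCGG or CCGGAAG in the first pair and CACGTG in the others. They lie at chr15:79075123-79075222 (plus strand, Eif3l), chr2:105017028-105017127 (minus, Eif3m), chr7:108934315-108934414 (plus, Eif3f), chr7:28981889-28981988 (minus, Eif3k) and chr10:81176531-81176630 (plus, Eef2).
Eif3l: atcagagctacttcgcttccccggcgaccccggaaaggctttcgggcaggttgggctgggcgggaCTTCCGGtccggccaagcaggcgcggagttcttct
Eif3m: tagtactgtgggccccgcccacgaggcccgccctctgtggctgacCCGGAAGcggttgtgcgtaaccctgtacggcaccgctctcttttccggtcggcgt
Eif3f: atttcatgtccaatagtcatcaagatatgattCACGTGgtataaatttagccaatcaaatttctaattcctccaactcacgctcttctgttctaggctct
Eif3k: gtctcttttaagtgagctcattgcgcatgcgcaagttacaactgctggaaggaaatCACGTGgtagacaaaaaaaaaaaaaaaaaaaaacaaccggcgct
Eef2: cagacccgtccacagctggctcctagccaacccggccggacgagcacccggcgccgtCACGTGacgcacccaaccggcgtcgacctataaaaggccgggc

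The median difference of the genes with the E-box was -0.29 on the log2 scale, with 10 of 11 tested genes lower. Without the E-box it was -0.28, with 21 of 27 lower, so the genes with and without the motif lay at nearly the same place. The corresponding medians were -0.31 with the ETS motif (12 of 14 lower) and -0.28 without it (19 of 24 lower). A match is a stretch of letters, and binding there was not measured.

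The arrays were first checked for what they held. All 8 intestinal epithelial markers listed were above the filter. Their deposited signals, not scaled between arrays, summed to 34251 and 29128 in mutant replicates 1 and 2, against 24218 and 28166 in control replicates 1 and 2. After quantile normalization their mean log2 signal was 11.06 and 11.05 in the mutants, against 11.07 and 11.14 in the controls. The 5 stem cell markers listed were each lower in both mutants than in both controls, as were 19.2% of all genes tested. The 5 goblet cell markers listed were each higher on average, 4 of them without overlap (18.9% of all genes tested). Their deposited signals summed to 23137 and 20378 in the mutants, against 11374 and 13785 in the controls. After quantile normalization the mean log2 signal of these 5 was 10.99 and 10.89 in the mutants, against 10.10 and 10.24 in the controls. Muc2, the main mucin, differed by 1.04, Spdef by 1.30 and Agr2 by 0.82. Ctnnb1, the deleted gene, had a log2 signal of 12.02 and 11.85 in the mutants, against 12.43 and 12.56 in the controls (difference -0.56, SE 0.22, limma adjusted p = 0.785). Which exons were deleted is not stated, so this probe set may not check the labels. Mutant replicate 1 stood apart: 11 measured markers of pancreatic acinar cells summed to a deposited signal of 92221 there, against 1025 in mutant replicate 2 and 1358 and 1573 in the controls. Acinar cells make much protein, so the median of the translation factors and their counts lower are also given without that array. As a measure of RNA length, the ratio of 5′ to 3′ signal of beta-actin was 0.0945 and 0.0448 in the mutants and 0.149 and 0.0567 in the controls. What part acinar RNA, RNA length and the goblet and stem cell markers had in the differences below was not tested, and in crypts captured in bulk fewer cells of a type and less RNA per cell cannot be told apart.

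Most translation factor genes had a lower signal in the mutant crypts, by small amounts. Of the 49 genes tested, 39 lay lower and 10 higher, where 49.3% of all genes tested lay lower. Their median difference was -0.28 on the log2 scale, against 0.01 over all genes, and the values ran from -1.08 for Eif3l, a subunit of eIF3, to 0.83 for Eif4e3, a member of the cap-binding eIF4E family. The limma SE ran from 0.19 to 0.58. In 21 genes both mutant arrays lay below both control arrays and in 2 genes both lay above, while the background over all genes was 19.2% lower and 18.9% higher. As a share of the 49 genes the 21 make 42.9%.

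None of these differences passed the test. With limma and Benjamini-Hochberg adjustment over 22519 probe sets, 0 probe sets passed (percent called 0), and the adjusted p of the translation factors was between 0.768 and 0.999. At an unadjusted p under 0.05, 4 of them were lower (Eif3l, Eif3a, Eef1b2 and Eif3m) and 0 higher, against 3.62% and 3.32% of all genes. With 2 arrays against 2, an exact permutation test of 1 gene cannot give a two-sided p below 0.333.

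How far the genes as a group stood below the controls depended on how the arrays were brought to one scale. Differences above are from quantile-normalized values. With the values as deposited 31 of the 49 genes were lower and 18 higher, and 9 had non-overlapping groups in the lower direction, against 14.9% of all genes. These 9 were Eif3l, Eif3a, Eif3m, Eif3i and Eif3f of eIF3, Eef1b2, Eef1d and Eef1aknmt of eEF1 and its modifiers, and Eif4ebp2. Median centring gave 27 lower and 22 higher, with 7 in non-overlapping lower groups against 10.1% of all genes. It moved the median of all genes to 0.13. Relative to that of all genes the median of the translation factors was -0.29 in the quantile-normalized values and -0.21 in both other scalings.

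**Figure D1:**
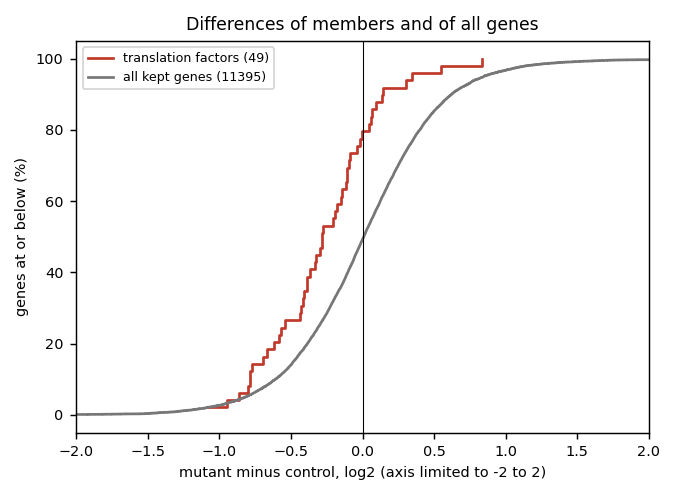
Cumulative share of genes (vertical axis, percent) at or below each difference, mutant minus control on the log2 scale (horizontal axis), for the 49 translation factors and the 11395 genes tested. The curve of the translation factors lies to the left, with 79.6% of them below 0 against 49.3% of all genes.

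Both mutant arrays contributed. Against the control mean the median of the 49 genes was -0.34 in mutant replicate 1 and -0.20 in mutant replicate 2. In mutant replicate 1, the array with acinar transcripts, 29 genes lay below both controls (background 33.4%), and in mutant replicate 2, without them, 27 did (background 34.1%). With mutant replicate 1 left out the median was -0.19 and 37 of 49 genes were lower. With control replicate 2 left out it was -0.13 with 31 lower, and with control replicate 1 left out -0.38 with 41 lower. Leaving out control replicate 1 raised the count of non-overlapping lower genes to 33, with a background then of 37.0% because a single control is easier to clear.

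**Figure D2:**
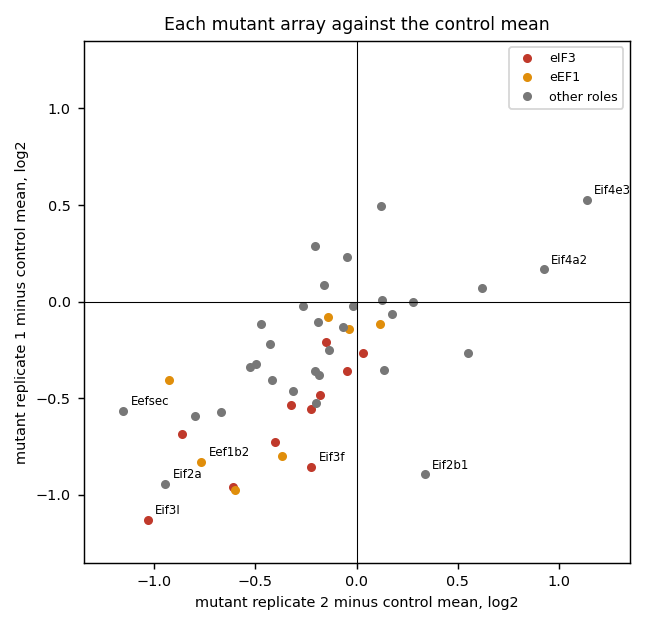
Each point is 1 of the 49 translation factor genes, with mutant replicate 2 minus the control mean on the horizontal axis and mutant replicate 1 minus the control mean on the vertical axis, both log2. In 34 genes both arrays lie below the control mean and in 5 both lie above it. Of all 11395 genes tested, both arrays lie below it in 3700 and above it in 3818. Eif2b1 lies below it in replicate 1 and above it in replicate 2.

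The eIF3 complex, the scaffold on the small ribosomal subunit, was the largest group and lay lower as a whole. All 11 measured subunit genes had a negative difference, with a median of -0.43 and a range of -1.08 to -0.12, and in 6 the groups did not overlap (background 19.2%). As deposited, 5 of the 11 had non-overlapping groups in this direction (background 14.9%). Their 9 other probe sets above the filter were lower too. Eif3l, a peripheral subunit whose promoter is printed above, had a log2 signal of 8.77 and 8.87 in the mutants, against 9.81 and 9.99 in the controls. Its difference of -1.08 (SE 0.31, 2.11-fold lower, adjusted p = 0.768) was the lowest of all 49 genes. Its deposited signals were 565 and 375 in the mutants, against 825 and 986 in the controls, so the groups were apart before scaling as well.

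Eif3a, the large subunit around which the complex assembles, had 10.56 and 10.90 in the mutants, against 11.58 and 11.45 in the controls, a difference of -0.78 (SE 0.27). Eif3m, a subunit of the structural core, had 8.29 and 8.11 in the mutants, against 8.88 and 9.07 in the controls (difference -0.77, SE 0.33). In both genes the spread within each group was smaller than the gap between groups. Eif3i had 10.92 and 11.25 in the mutants, against 11.80 and 11.51 in the controls (-0.57, SE 0.27). Eif3f had 11.43 and 12.06 in the mutants, against 12.18 and 12.38 in the controls (-0.54, SE 0.27), and there mutant replicate 2 came close to the lower control. Eif3e had 11.64 and 11.85 in the mutants, against 12.10 and 12.25 in the controls (-0.43, SE 0.23), although its deposited signals overlapped, at 4056 and 3438 in the mutants against 3830 and 4770 in the controls.

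The other 5 subunits overlapped between groups. Eif3k differed by -0.39 (SE 0.34), Eif3d, which can bind the cap itself, by -0.33 (SE 0.36), Eif3h by -0.20 (SE 0.29), and the core subunits Eif3c and Eif3b by -0.18 (SE 0.32) and -0.12 (SE 0.32). In all of these 5 genes control replicate 2 was above control replicate 1. Without control replicate 2, 7 of the 11 subunits were lower, and without mutant replicate 1, 10 were. As deposited, 9 of 11 were lower, and with median centring 8 of 11.

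**Figure D3:**
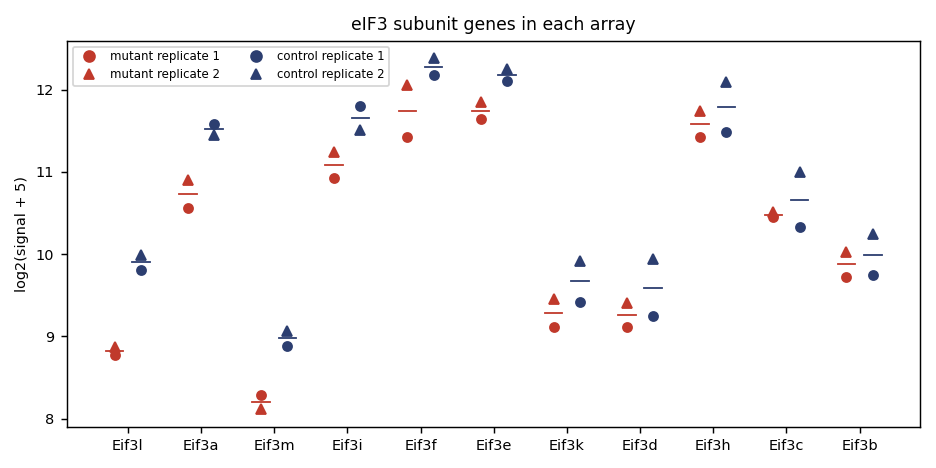
Log2(signal + 5) after quantile normalization (vertical axis) of the 11 eIF3 subunit genes, ordered by difference. Circles are replicate 1 and triangles replicate 2, mutants in red to the left of controls in blue, and short lines are group means; from Eif3l to Eif3e both mutants lie below both controls.

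Factors that choose the start codon and carry the initiator tRNA were also mostly lower. Eif1a, which encodes a form of the scanning factor eIF1A, had 8.79 and 8.59 in the mutants, against 9.60 and 9.17 in the controls (difference -0.69, SE 0.34). A second probe set for Eif1a gave 0.05 (SE 0.42), so the probe sets disagreed in sign. The related gene Eif1ax differed by -0.28 (SE 0.26) with non-overlapping groups, Eif1b by -0.29 (SE 0.37) and Eif1ad by 0.04 (SE 0.35). Deposited signals of Eif1a overlapped, at 573 and 305 in the mutants against 715 and 562 in the controls. Those of Eif1ax also overlapped, at 2608 and 1993 in the mutants against 2171 and 2662 in the controls. Transcripts of Eif1a and Eif1ax are alike and may share probes.

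Among the tRNA carriers, Eif2s2, the beta subunit of eIF2, differed by -0.41 (SE 0.30), and its 5 other probe sets above the filter had the same sign. Eif2d, an alternative carrier, differed by -0.39 (SE 0.35), with its 3 other probe sets again of the same sign. In both genes the mutants lay below the controls after quantile normalization, but the deposited signals overlapped. For Eif2s2 they were 1511 and 864 in the mutants, against 1130 and 1645 in the controls. For Eif2d they were 461 and 321 in the mutants, against 396 and 589 in the controls. Eif2a, another alternative carrier, had 8.23 and 8.23 in the mutants, against 10.15 and 8.20 in the controls (-0.94, SE 0.58). Without control replicate 1 the difference was 0.035. The other Eif2a probe set above the filter gave -0.48 (SE 0.36), with 7.88 and 7.75 in the mutants against 8.52 and 8.07 in the controls, which did not overlap.

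The exchange factor eIF2B, which reloads eIF2 with GTP and is the target of the integrated stress response, gave 5 negative differences of 5, with a median of -0.19. The groups were apart in 1 of them, the delta subunit gene Eif2b4 (background 19.2%). It had 9.11 and 9.01 in the mutants, against 9.50 and 9.86 in the controls (-0.62, SE 0.32). Deposited signals of Eif2b4 overlapped, at 720 and 419 in the mutants against 664 and 909 in the controls. Eif2b1 had 7.53 and 8.76 in the mutants, against 8.40 and 8.43 in the controls, so the mutant arrays lay on opposite sides of the controls. Eif2b5, the catalytic subunit, differed by -0.19 (SE 0.36), Eif2b3 by -0.11 (SE 0.39) and Eif2b2 by -0.04 (SE 0.32).

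The eIF4 proteins that bind and unwind the mRNA went both ways. Of 6 helicase, cofactor and scaffold genes 3 were lower and 3 higher, with a median of 0.02. Eif4a1, the main helicase, had 11.62 and 11.61 in the mutants, against 12.04 and 12.02 in the controls (-0.41, SE 0.23), with replicates nearly identical within each group. Deposited signals of Eif4a1 overlapped, at 3993 and 2889 in the mutants against 3691 and 4042 in the controls. Its paralog Eif4a2 had 9.85 and 10.61 in the mutants, against 10.03 and 9.33 in the controls (0.55, SE 0.39), and overlapped.

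Within each array, Eif4a2 minus Eif4a1 was -1.77 and -1.001 in the mutants and -2.003 and -2.69 in the controls. This is a shift of 0.96 toward Eif4a2 in which the groups did not overlap. The exact two-sided permutation p of 0.333 is the smallest that these 4 arrays allow. Both other Eif4a1 probe sets above the filter differed less (-0.18, SE 0.38, and -0.12, SE 0.36), and with either the groups overlapped. Eif4h, a helicase cofactor with a bright probe set, had 12.52 and 12.28 in the mutants, against 12.58 and 12.50 in the controls (-0.14, SE 0.22). Eif4g2, which encodes the eIF4G-like factor used in cap-independent initiation, had 12.39 and 12.46 in the mutants, against 12.73 and 12.31 in the controls (-0.10, SE 0.23). The groups overlapped in both genes, and the difference turned positive with the values as deposited (0.091 and 0.19) and with median centring (0.21 and 0.31). With x and s probe sets left out, Eif4g2 was instead read from a probe set that gave -0.68 (SE 0.36). The scaffold gene Eif4g3 differed by 0.34 (SE 0.37), with both other probe sets of the opposite sign, and the cofactor gene Eif4b by 0.14 (SE 0.35).

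Cap-binding proteins and their inhibitors included the highest difference of the set. Eif4e3, an atypical cap-binding relative of eIF4E, had 7.88 and 8.49 in the mutants, against 7.50 and 7.21 in the controls (difference 0.83, SE 0.38, 1.78-fold higher, adjusted p = 0.789). Its deposited signals of 292 and 287 in the mutants were also above the 179 and 143 of the controls. Eif4e itself, the cap-binding protein of general translation, differed by -0.15 (SE 0.32). Eif4e3 minus Eif4e within an array was -1.16 and -0.47 in the mutants and -1.63 and -1.97 in the controls, again without overlap (exact two-sided permutation p = 0.333). With another Eif4e3 probe set (difference 0.54, SE 0.45) the groups overlapped. Of 4 paralog pairs compared by their brightest probe sets, 2 overlapped between groups, namely Eef1a2 with Eef1a1 and Eif1a with Eif1ax (exact permutation p = 0.667 each). Each adjusted p over the 4 pairs was 0.667.

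The inhibitors that hold eIF4E away from eIF4G differed by -0.36 (SE 0.33) for Eif4ebp2 and 0.07 (SE 0.33) for Eif4ebp1. Eif4enif1, which carries eIF4E into the nucleus, differed by -0.43 (SE 0.34), and Eif4e2, a cap-binding repressor, by 0.06 (SE 0.28). Groups were apart in Eif4ebp2, Eif4enif1 and Eif4e, each lower in the mutants (background 19.2%). Deposited signals of Eif4enif1 overlapped, at 339 and 186 in the mutants against 344 and 327 in the controls. For Eif4e, 2 of 3 further probe sets were positive (0.18, SE 0.40, and 0.04, SE 0.38), and its deposited signals overlapped, at 689 and 404 in the mutants against 519 and 567 in the controls. The probe sets of Eif4e2 disagreed: a dimmer one gave 1.04 (SE 0.38) and another -0.33 (SE 0.35).

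**Figure D4:**
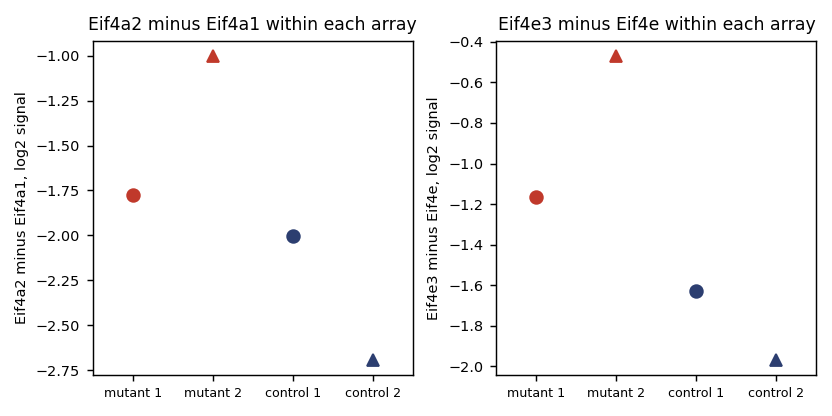
Difference in log2 signal between paralogs within each array (vertical axes), mutants in red to the left of controls in blue: Eif4a2 minus Eif4a1 and Eif4e3 minus Eif4e. Each gene is read from its brightest probe set. In both panels the 2 mutant arrays lie above the 2 control arrays, which other probe sets of Eif4a1 and Eif4e3 did not repeat. Different probe sets are not on one scale, so only the shift between groups can be read.

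In the 3 genes of subunit joining the groups overlapped, and probe sets of the same gene differed in sign. Eif5, which triggers GTP hydrolysis on eIF2, differed by 0.14 (SE 0.25), but 3 of 4 further probe sets were negative, the lowest at -0.87 (SE 0.32). Eif6, which keeps the large subunit from joining too early, differed by 0.09 (SE 0.25). Eif5b, the GTPase that joins the subunits, had 7.24 and 7.03 in the mutants, against 7.21 and 7.70 in the controls (-0.32, SE 0.37), and its other probe sets gave -1.10 (SE 0.55) and 0.48 (SE 0.60). Eif5a, the hypusine-containing factor that helps peptide bonds form, had 12.79 and 12.79 in the mutants, against 12.78 and 12.85 in the controls (-0.02, SE 0.20). The sign of Eif5a turned to 0.25 as deposited and 0.37 with median centring.

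All 7 genes of elongation factor eEF1 and its modifiers had a negative difference, with a median of -0.58, and in 5 the groups did not overlap (background 19.2%). As deposited 3 of them did not overlap, namely Eef1b2, Eef1d and Eef1aknmt (background 14.9%). Eef1b2, the beta subunit that recharges eEF1A, had 11.90 and 11.96 in the mutants, against 13.15 and 12.31 in the controls (difference -0.80, SE 0.30, 1.74-fold lower, adjusted p = 0.772). Control replicate 1 was far above control replicate 2, and without it the difference was -0.39 (SE 0.29). Eef1d, the delta subunit, had 10.82 and 11.25 in the mutants, against 11.48 and 11.75 in the controls (-0.58, SE 0.27). Eef1a1, which delivers aminoacyl-tRNA in most cells, had 13.06 and 13.17 in the mutants, against 13.19 and 13.22 in the controls, a difference of -0.09 (SE 0.19) that turned to 0.22 as deposited and 0.34 with median centring. Eef1a2, its paralog of muscle and neurons, was dim and differed by -0.67 (SE 0.41), with deposited signals of 59.5 and 29.0 in the mutants and 94.7 and 53.8 in the controls.

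Of the methyltransferases that modify eEF1A, Eef1aknmt had 4.91 and 5.28 in the mutants, against 6.13 and 5.63 in the controls (-0.79, SE 0.42), close to the filter. Eef1akmt2 and Eef1akmt1 differed by -0.11 (SE 0.36) and -0.00129 (SE 0.35). Eef2, the translocation factor, had 11.90 and 12.09 in the mutants, against 12.12 and 12.43 in the controls (-0.28, SE 0.23), and turned to 0.079 with median centring. Eef2k, the kinase that inactivates eEF2, differed by 0.31 (SE 0.36), and both of its other probe sets were positive. Eefsec, which delivers selenocysteine, had 5.77 and 5.18 in the mutants, against 5.61 and 7.06 in the controls (-0.86, SE 0.53), and the controls alone spanned more than this difference, which was -0.13 without control replicate 2.

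**Figure D5:**
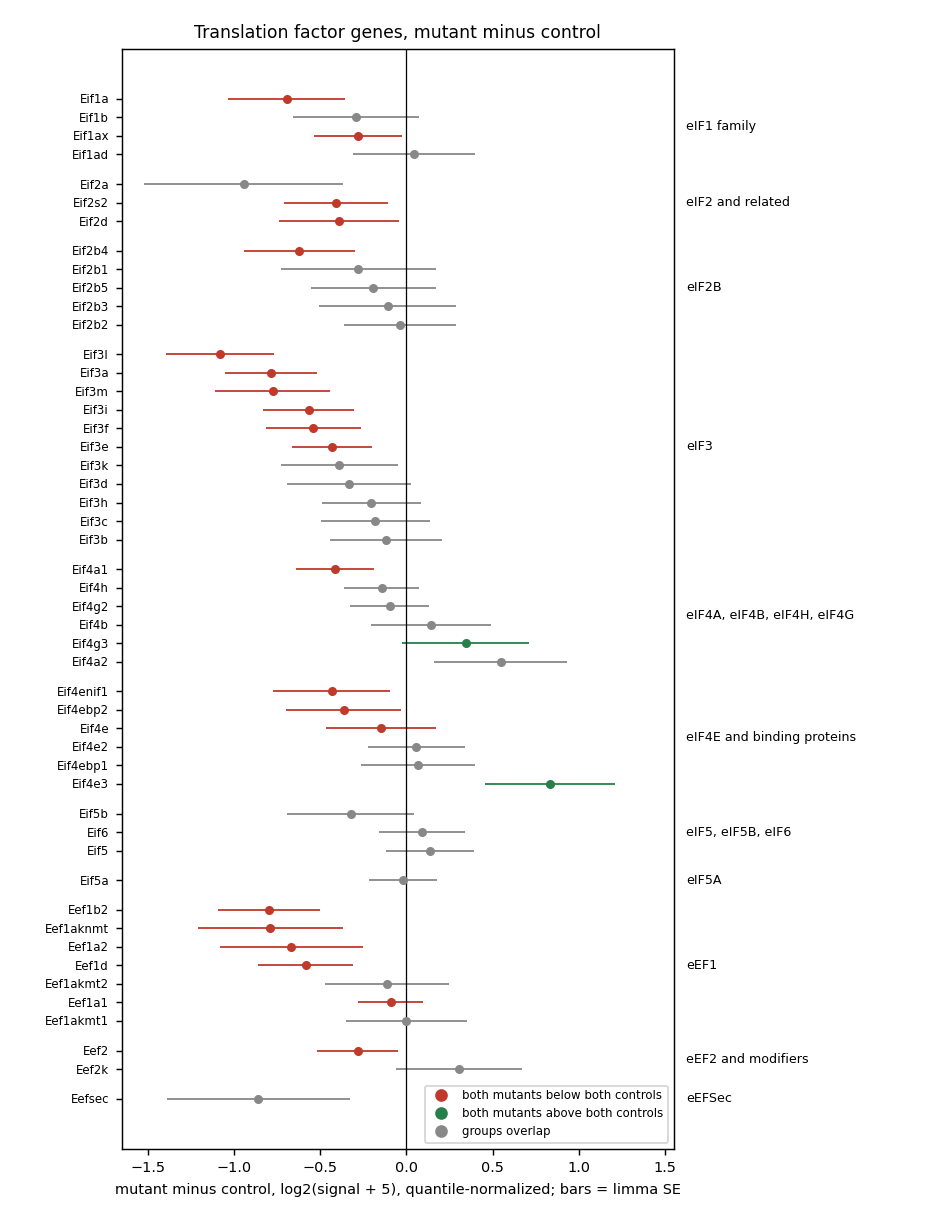
Mutant minus control on the log2 scale (horizontal axis) with the limma SE as bars, for the 49 tested genes grouped by role. Red marks the 21 genes with both mutants below both controls, green the 2 with both above (Eif4g3 and Eif4e3) and grey the 26 that overlap; all 11 eIF3 subunits lie left of 0.

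Other genes of the same pathway gave mixed directions, and 0 of them passed the test. Of 35 tested genes of cytosolic ribosomal proteins 30 were lower, with a median of -0.19 against -0.28 for the translation factors. In 14 of the 35 the groups did not overlap in the lower direction (background 19.2%). The 35 are part of the class, since the symbol pattern left out some Rpl genes, the Rplp genes and Rpsa. Genes without a probe set annotated to exactly 1 symbol were not counted either. The poly(A)-binding proteins and their partners gave 4 lower of 6, with a median of -0.18. Factors of scanning and ribosome recycling outside the Eif and Eef names gave 7 lower of 10, with a median of -0.35. Among those Abce1, which splits ribosomes after termination, had 8.99 and 8.86 in the mutants, against 9.86 and 9.52 in the controls (-0.76, SE 0.32), and the release factor gene Gspt1 differed by -0.49 (SE 0.35). Mitochondrial translation factors gave 4 lower of 9 with a median of 0.01, and the enzymes of hypusine and diphthamide synthesis 4 of 8 with a median of 0.01.

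Regulators of initiation did not share one direction. Of 17 genes of mTOR and MNK control 11 were lower, with a median of -0.06. Mknk1, a kinase of eIF4E, differed by 0.73 (SE 0.39) and Pdcd4, an inhibitor of eIF4A, by -0.53 (SE 0.30). The eIF2 kinases and genes of the integrated stress response gave 9 higher and 5 lower of 14, with a median of 0.44. Trib3, a target of the stress factor ATF4, had 7.01 and 6.62 in the mutants, against 5.34 and 5.30 in the controls (1.49, SE 0.37, adjusted p = 0.768). Eif2ak3, the kinase PERK that senses unfolded protein, had 8.63 and 8.35 in the mutants, against 7.63 and 7.76 in the controls (0.80, SE 0.34). Ddit3, which encodes the stress factor CHOP, differed by 0.84 (SE 0.37). In all 3 genes both mutants were above both controls. Over the 14 genes the groups did not overlap in 6 higher and 3 lower, against 18.9% and 19.2% of all genes. The 3 lower were Eif2ak4 (-0.80), Nck1 (-0.56) and Asns (-0.32). Atf4 itself differed by -0.60 (SE 0.53) and overlapped. Among Myc and its partners, Myc differed by -0.56 (SE 0.36), with 6.61 and 7.05 in the mutants against 7.33 and 7.45 in the controls, and Max by 1.06 (SE 0.43). Mxd1 was at 11.49 in mutant replicate 1, against 9.31 in mutant replicate 2 and 9.62 and 8.77 in the controls. The 3 genes listed for the tRNA synthetase scaffold, Eef1e1, Aimp2 and Aimp1, overlapped between groups.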

How the data were processed

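Probe set intensities on a linear scale were deposited by the authors for 4 single-colour arrays (2 mutant, 2 control); they were made with MAS5, per the submitters' processing notes, with a scaling target that the sources used here do not state. Dim MAS5 values are noisy, and amplification favours 3′ ends. Precision is limited by the 4 arrays. Of 45101 probe sets, 64 controls were left out. Values were taken as log2(intensity + 5), which understates the change of dim genes. Because trimmed means of the arrays differed up to 1.53-fold, more than the 10% allowed, the log2 values were quantile-normalized. Probe sets at or above the 50th percentile of mean log2 signal (4.79) were kept. The test was limma's (3.58.1, under R 4.3.3; lmFit and eBayes with an intensity trend, two-sided, Benjamini-Hochberg over 22519 probe sets, threshold 0.05). SE is that of the fit. It was tested on simulated data.

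Values in every array are given for 21 genes: the 12 with the smallest p, the 6 brightest, and the smallest p of each role. Eif2b1, Eif4a2 and Eif4e are also given so, chosen after their values were seen. Other genes are given by difference, and lists by counts, medians and up to 3 genes with the smallest p. Eif2ak4, Nck1, Asns and Atf4 are also named from their list, chosen after their values were seen. The members and gene lists were chosen with earlier results of these data known. Symbols of all 52 genes matched RefSeq through the gene identifier, and 0 were updated. Levels of different probe sets were not compared, and probe sets whose names hold x or s can bind related transcripts. Alternatives covered scaling, pseudocount, filter, variance model, a block for the replicate number, the probe set of a gene and leaving out each array; the choice without x and s probe sets was made after seeing the data.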

Additional observations from a re-analysis of the deposited data

How the results depend on the processing

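The translation factors past the test stayed at 0 under each of the 15 alternatives (smallest adjusted p 0.24, without control replicate 2). In the 4 that leave out an array, 1 group has a lone array, which is assumed to vary like the other group. Over all probe sets 2 passed with the values as deposited, 102 with median centring and 1 with the replicate block, and between 0 and 90 with 1 array left out. No label pairs same-numbered arrays, and their deviations correlated at 0.03 over the probe sets. The beta-actin ratio was 0.0945 in mutant and 0.149 in control replicate 1, against 0.0448 and 0.0567 in replicate 2. Whether same-numbered arrays share a batch was not tested. The median difference of the translation factors was -0.19 as deposited and -0.075 with median centring, and -0.38 to -0.13 with 1 array left out. Genes with non-overlapping groups numbered 9 lower and 5 higher as deposited (14.9% of all genes in each direction) and 7 lower and 4 higher with median centring (10.1% and 18.7% of all genes); with 1 array left out they numbered 25 to 33 lower and 6 to 10 higher (33.1% to 37.0% and 32.1% to 38.6% of all genes), where a lone array makes groups easier to separate. Of the 21 genes given by array, 15 kept their sign in every alternative in which they were tested. Signs turned as deposited for Eef1a1 (0.22), Eif4h (0.091), Eif4g2 (0.19) and Eif5a (0.25), with median centring for Eef1a1 (0.34), Eef2 (0.079), Eif4h (0.21), Eif4g2 (0.31) and Eif5a (0.37), and for Eif4h (0.033) when x and s probe sets were left out. With 1 array left out Eif2a ran from -1.93 to 0.035, Eif4g2 from -0.30 to 0.11 and Eif5a from -0.055 to 0.015, turning without control replicate 1 in Eif2a and Eif4g2 and without control replicate 2 in Eif5a. The cause of these turns was not tested. Pseudocounts of 1 and 32, both other filters, both variance models and the mean of all probe sets left the counts of non-overlapping genes within 1.5 times their value.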
